A study of Mus musculus with 3 samples.

Results

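Sorted mouse colon macrophages of 2 genotypes were compared, the library labelled Tle3cKO against the WT library, with 1 pooled library a side. Of the 23997 genes with a row, 11139 averaged 1 FPKM or more over these 2 libraries and are described here. FPKM counts sequenced fragments per length of transcript and per depth of library, so levels can be set side by side between genes. The remaining 12858 were set aside. The donors were untreated C57BL/6 males, and colon macrophages were sorted as Siglec-F(-) Ly6C(lo) CD64(+) cells, a gate meant to leave out eosinophils and newly arrived monocytes. WT mice carried Lyz2-Cre alone, which places Cre recombinase under the lysozyme 2 promoter and is active in macrophages, monocytes and neutrophils. Tle3cKO mice were Tle3f/f Lyz2-Cre, so both groups carried the Cre, and no group without it was analysed here. Mice were 9 weeks old by one label and 8.9 weeks by another. Cells of 4 WT and 3 Tle3cKO mice were sorted at the same time and pooled by genotype. A library from 4 Tle4cKO mice (Tle4f/f Lyz2-Cre) was compared with the same WT library, and its values are set beside those of the members. With single pooled libraries, nothing below could be checked against replicates and no p-value is given. A set of 3 values in the text runs in the order WT, the library labelled Tle3cKO, Tle4cKO, and a pair gives the first 2 of these.

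TLE3 belongs to the Groucho family of corepressors, nuclear proteins that do not bind DNA themselves. They are recruited by DNA-binding factors such as TCF/LEF proteins of the Wnt pathway, HES proteins of the Notch pathway and RUNX proteins, and they repress the genes these factors sit on. In the colon, macrophages are renewed partly from blood monocytes, take up bacteria and dead cells, and present antigen to T cells in the tissue.

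Total FPKM was 610714, 569961 and 598023 in the 3 libraries, and the commonest ratio between the steps of the lowest values, held by 13.9% of the genes used for it, put the depth of the library labelled Tle3cKO at 0.968 of that of WT. The median log2 ratio of Tle3cKO to WT, computed on FPKM + 1 to damp low values, was -0.01 over the 11139 genes, with 52.5% below WT. Adding 1 understates the differences of low genes. Among the genes just inside the filter, Pydc3 was at 1.26 and 0.744 FPKM. Just outside it, Exoc3l4 was at 0.987 and 1.01 FPKM. A gene could pass through 1 library alone: 168 genes were below 1 FPKM in WT and 130 below it in the library labelled Tle3cKO. In these bulk samples fewer cells of a type and less RNA per cell cannot be told apart.

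Tle3 itself was higher, not lower, in the library labelled Tle3cKO. It was at 38.6, 70.7 and 46.9 FPKM, 0.86 on the log2 scale, and lies on chromosome 9 (61372366 to 61418497, mm10, ENSMUSG00000032280.16). The value is summed over the gene, so the exons between the loxP sites were not seen apart, and every direction below follows the label as given. Tle1, the closest measured relative by level, was at 34.3, 42.3 and 32.4 FPKM. Tle4 was at 8.50, 11.01 and 5.80 FPKM, so it too was highest in the library labelled Tle3cKO. Tle2 was at 1.43, 2.16 and 1.43 FPKM and Tle6 at 1.02, 1.39 and 1.53, both low. Aes, a short family member that lacks the domain for several partners, was the 1 of 6 that lay below WT (83.5 and 70.7 FPKM).

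The genes around Tle3 did not share its difference. Of 83 genes past the filter that start within 5 Mb of Tle3, 45 were above WT and 38 below, with a median log2 ratio of 0.02 and none past 1.5-fold lower or 2-fold higher. The nearest, Rplp1, a ribosomal stalk protein, was at 2907 and 2767 FPKM. Kif23, a mitotic kinesin, was at 4.67 in both. Over the 10 nearest genes the log2 ratios ran from -0.15 to 0.27, so the value of Tle3 stood above all of them.

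Markers of macrophages were abundant in both libraries, and the sum of 11 of them was 5097 and 4554 FPKM. Csf1r, the receptor that macrophages need to survive, was at 459, 406 and 387 FPKM. Fcgr1, which encodes the CD64 used in the gate, was at 33.3, 36.04 and 39.2 FPKM. Emr1, the F4/80 antigen, was at 150 and 143 FPKM in the 2 libraries compared. Lyz2, whose promoter drives the Cre, was at 10.4 and 11.7 FPKM while its near-identical neighbour Lyz1 was at 476 and 423; reads shared by such copies are split by estimation, so neither level is certain. Among genes that the gate should leave out, Ly6c2, which encodes part of the Ly6C antigen, was at 9.38 and 5.98 FPKM. The eosinophil granule gene Epx was listed at 0 in all 3 libraries and Prg2 at 0 in WT, and 4 eosinophil markers summed to 3.52 and 3.07 FPKM.

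Few genes differed by 2-fold. By this threshold 25 of 11139 genes (0.224%) were higher in the library labelled Tle3cKO and 26 (0.233%) were lower, together 51 (0.458%). With both libraries scaled to equal totals the counts were 44 and 23, a scaling that moves the median of all genes to 0.08. Past 1.5-fold there were 178 higher genes (1.6%) and 126 lower (1.13%), together 304 (2.73%). In Tle4cKO, against the shared WT library, 6 of the same genes (0.0539%) were past 2-fold higher and 57 (0.512%) lower. Of the 51 genes past 2-fold, 16 were rows with provisional names, joined symbols or small RNAs, and 13 of the 25 higher and 12 of the 26 lower had a mean under 5 FPKM. The plot of ratio against level shows a spread that narrowed with abundance up to 100 FPKM. The SD over genes was 0.32 between 1 and 2 FPKM, 0.19 between 30 and 100 FPKM and 0.38 above that, where Snora81 lies. The median ratio moved from 0.06 in the lowest of these classes to -0.07 for the 846 genes at 100 FPKM or more, of which 73.8% lay below WT.

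**Figure D1:**
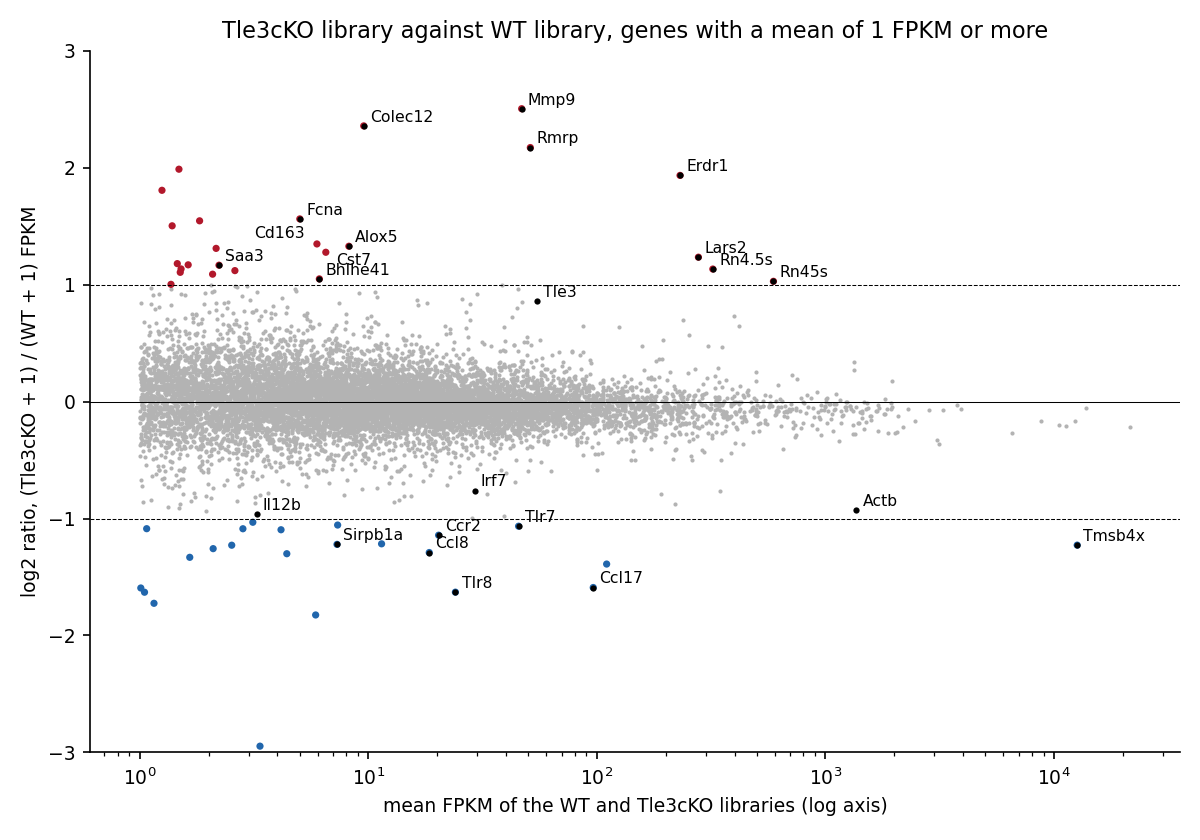
Log2 ratio to WT for the library labelled Tle3cKO (y axis, FPKM + 1) against the mean FPKM of the 2 libraries (x axis, log scale), 1 point per gene past the filter, with dashed lines at 2-fold; red and blue points lie past them. Mmp9 at 2.504 and Colec12 at 2.36 top the upper side, while the most abundant gene past a line is Tmsb4x at -1.23; Snora81, the joined row of Eif3j1 and Eif3j2, and Cd300lh lie below the axis.

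Mmp9 encodes gelatinase B, a protease that macrophages release into the matrix, and no gene past the filter had a higher ratio. It was at 13.3, 80.3 and 36.04 FPKM, 2.504 on the log2 scale, and lies on chromosome 2 (164940780 to 164955850, ENSMUSG00000017737.2). The Tle4cKO library lay between the other libraries. Other matrix proteases did not follow it. Of 27 genes for matrix proteases and their inhibitors past the filter, 16 were above WT and 11 below, with a median of 0.01. Mmp12, the macrophage elastase, was at 223 and 175 FPKM, and the collagenase Mmp13 at 263 and 272. The intracellular protease inhibitor Serpinb6a was the only other member of that list past 1.5-fold, at 25.4 and 51.8 FPKM. Timp1, which inhibits MMP9, was at 17.0 and 18.1 FPKM.

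Genes that mark long-lived gut macrophages lay mostly above WT. Of 28 listed, 23 passed the filter and 21 of these were above WT, where 47.5% of all genes were. Their median log2 ratio was 0.28, 9 were past 1.5-fold higher and 3 past 2-fold. Colec12, a scavenger receptor of the collectin family, was at 2.44, 16.6 and 2.61 FPKM, so Tle4cKO lay at the WT level. Fcna, a ficolin that starts the lectin pathway of complement, was at 2.04, 7.98 and 3.74 FPKM. Cd163, the receptor for haemoglobin bound to haptoglobin, was at 2.92, 8.98 and 5.94 FPKM (chromosome 6, 124304656 to 124330527, ENSMUSG00000008845.9). For Fcna and Cd163 Tle4cKO lay between WT and the library labelled Tle3cKO. Selp, an adhesion receptor for leukocytes, was at 7.06, 14.4 and 7.66 FPKM, and the folate receptor Folr2 at 7.34, 14.5 and 10.6. Timd4, the phosphatidylserine receptor that marks self-renewing gut macrophages, was at 31.8, 53.0 and 45.9 FPKM. F13a1, a transglutaminase of clotting, was at 10.6, 17.5 and 12.7 FPKM, and Gas6, the bridge between dead cells and MERTK, at 17.8, 27.9 and 22.3. Among the more abundant members, the platelet-type chemokine Pf4 was at 305 and 372 FPKM, and the mannose receptor Mrc1 at 90.3 and 98.7. Retnla, a secreted protein of the resistin family, went the other way at 243 and 140 FPKM.

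Several genes for the uptake of dead cells lay on the same side. Of 25 such genes past the filter, 14 (56%) were above WT, where 47.5% of all genes were, and 11 below, with a median of 0.06. The lowest, Cd300lf, was at 10.6 and 7.85 FPKM. Past 1.5-fold 5 were higher, where 1.6% of all genes were. Besides Timd4 and Gas6, these were Mertk (4.46 and 7.65 FPKM), the bridging protein Mfge8 (21.02 and 34.7) and Anxa1 (97.9 and 153). The complement genes C1qa, C1qb and C1qc, which also tag dead cells, were not among them, and C1qb was at 1443 and 1191 FPKM. The wider list of resident macrophage identity genes had a median of -0.12, with 11 of 34 above WT, which under equal totals became -0.03. Il10, the cytokine that restrains gut inflammation, was at 66.3, 90.0 and 61.1 FPKM. It had the highest ratio of 27 IL-10 axis and anti-inflammatory genes. Of these, 18 were below WT, where 52.5% of all genes were. Their median was -0.09, which under equal totals became 0.01.

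Further named genes past 2-fold higher had separate roles. Alox5, the 5-lipoxygenase of leukotriene synthesis, was at 4.25, 12.2 and 6.86 FPKM. Cst7, an inhibitor of lysosomal cathepsins, was at 3.39, 9.63 and 5.34 FPKM. Bhlhe41, a repressor of the basic helix-loop-helix class, was at 3.63, 8.57 and 6.72 FPKM. In these 3 genes, too, the Tle4cKO value stood between the others. Saa3, an acute-phase lipid carrier, was at 0.984, 3.45 and 2.22 FPKM, so its difference rests on low values. Nme4, a mitochondrial kinase, was at 0.814, 3.50 and 2.18 FPKM. Abundant genes that gained in FPKM without a 2-fold difference included the filament protein Vim (1173 and 1481), the neutrophil attractants Cxcl2 (1205 and 1456) and Cxcl1 (298 and 411), the interferon-inducible membrane gene Ifitm1 (298 and 498), the myelin protein gene Pmp22 (181 and 294) and the stress cytokine Gdf15 (204 and 303).

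**Figure D2:**
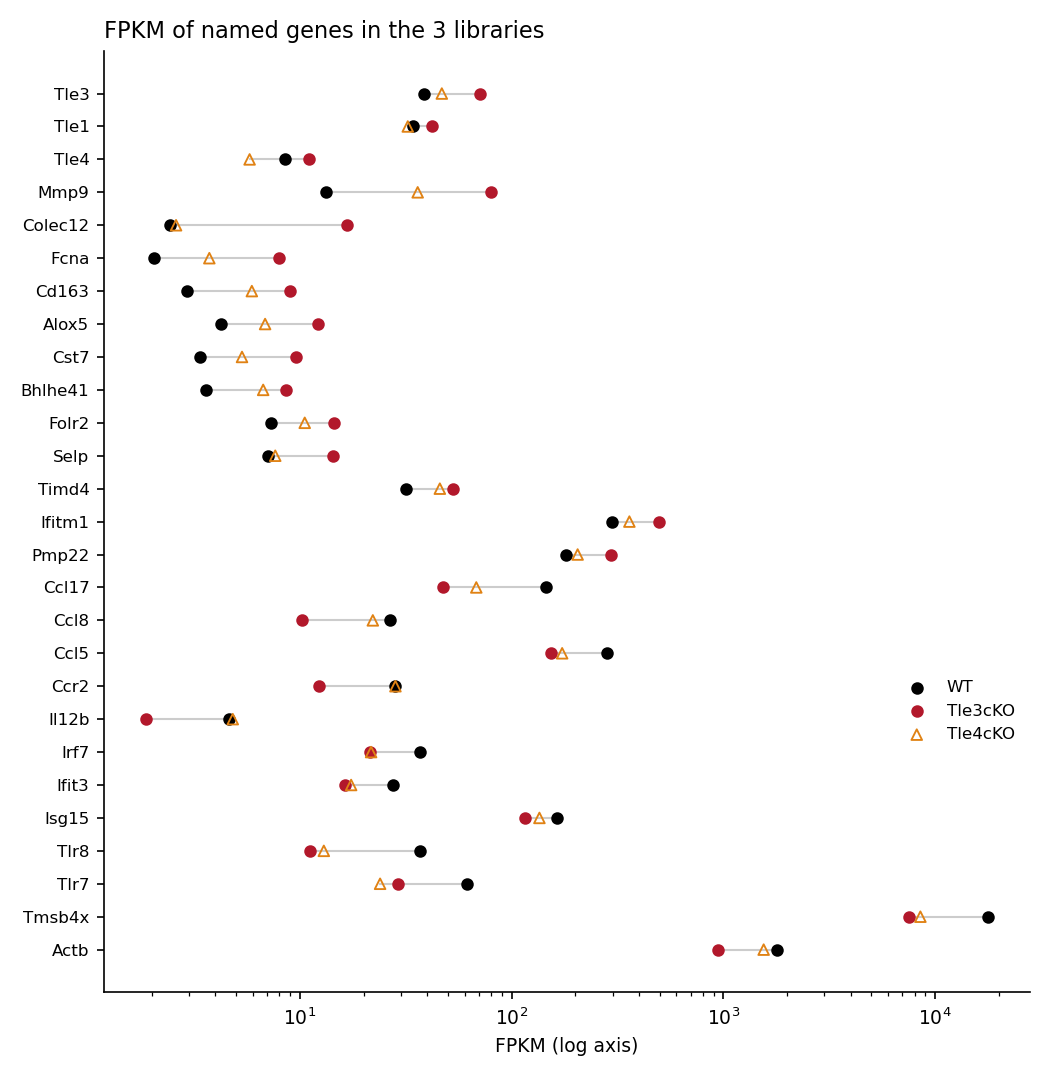
FPKM (x axis, log scale) of 27 genes described in the text in the WT library (black), the library labelled Tle3cKO (red) and the Tle4cKO library (open triangles), 1 pooled library each, with grey lines joining the lowest and the highest. The Tle4cKO triangle sits at the WT point for Colec12, Ccr2 and Il12b, between the others for Mmp9 and Cd163, and at the Tle3cKO point for Irf7.

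Chemokines and chemokine receptors held some of the lowest ratios without a common direction. Ccl17, which attracts T cells that bear CCR4, was at 145, 47.5 and 68.2 FPKM, -1.59 on the log2 scale, and lies on chromosome 8 (94810453 to 94812036, ENSMUSG00000031780.2). Ccl8, an attractant made by resident macrophages, was at 26.6, 10.3 and 22.1 FPKM. Ccl5 was at 283, 154 and 173 FPKM, and Ccl22, which shares the receptor of CCL17, at 122, 89.3 and 94.9. All 4 were lowest in the library labelled Tle3cKO. Of 14 CC chemokines past the filter, however, 8 were above WT, with a median of 0.07. Ccl3 was at 168 and 217 FPKM, the monocyte attractant Ccl7 at 54.9 and 72.7, and the eosinophil attractant Ccl11 at 16.5 and 23.6. Among 13 other chemokines, 6 were above WT and 7 below, from Cxcl9, which is induced by interferon gamma (17.8 and 9.48), to Cxcl14 (3.75 and 7.05), and under equal totals 7 were above WT.

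Ccr2, the receptor that brings monocytes into tissue, was past 2-fold lower. It was at 28.3, 12.3 and 28.3 FPKM and lies near the end of chromosome 9 (124101950 to 124113557, ENSMUSG00000049103.14). Tle4cKO lay at the WT level. Of other receptor genes in the same cluster, Ccr1 was at 172 and 164 FPKM and Xcr1 at 6.92 and 6.60. Ccr7, the receptor for migration to lymph nodes, was at 305, 216 and 316 FPKM. Of 15 chemokine receptors past the filter, 6 were above WT and 9 below. Under equal totals 9 of the 15 were above WT. The list of monocyte genes, which holds Ccr2, had 13 of 32 above WT and a median of -0.06, which under equal totals became 0.04. Among these, Ly6c2 was lower as given above, S100a8 was at 81.4 and 93.5 FPKM, and the C-type lectin receptor Clec4d at 190 and 227.

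Genes of the IL-4 response contained Ccl17, Ccl8 and Ccl22 and had a median of -0.13, which under equal totals became -0.04. Of 21 past the filter 7 were above WT, where 47.5% of all genes were. Retnla, given above, and Chil3, a chitinase-like secreted protein (2.502 and 0.989 FPKM), were low as well. Clec7a, the receptor for fungal glucans, was at 407 and 288 FPKM, and Egr2, a transcription factor of alternative activation, at 16.7 and 12.7. Mrc1 and Il4ra, the IL-4 receptor chain (142 and 146), lay slightly above WT, so members lay on both sides. Among inflammatory cytokines, Il12b, the subunit shared by IL-12 and IL-23, was at 4.61, 1.88 and 4.83 FPKM. Il27 was at 1.467, 0.5505 and 0.635 FPKM. Il1b was at 815 and 667 FPKM, Tnf at 68.1 and 83.1, and Il1a at 20.7 and 27.6. Of 25 inflammatory cytokines and mediators past the filter, 12 were above WT and 13 below. Their median was -0.09, which under equal totals became 0.03.

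Interferon-stimulated genes were the list with the lowest median. Of 66 listed, 64 passed the filter and 61 of these were below WT, where 52.5% of all genes were, with a median log2 ratio of -0.35. Past 1.5-fold 11 were lower against a background of 1.13%, and none was past 2-fold. Under equal totals 56 were below WT and the median was -0.26. Irf7, the factor that amplifies type I interferon production, was at 37.0, 21.4 and 21.7 FPKM (ENSMUSG00000025498.15, chromosome 7, 141262706 to 141266481). Gbp4, a GTPase induced by interferon, was at 19.8, 10.8 and 16.9 FPKM. Ifi27l2a was at 434, 254 and 289 FPKM. Ifit3, which binds viral RNA complexes, was at 27.5, 16.4 and 17.5 FPKM, and Isg15, a ubiquitin-like modifier, at 164, 116 and 135. The 3 members above WT were Irf9 (23.5 and 23.96), Irgm2 (7.47 and 7.64) and Ifitm3, which blocks virus entry (656 and 769). Ifitm1, an interferon-inducible gene outside this list, was also above WT at 298 and 498 FPKM, 0.74 on the log2 scale. The same 64 genes in Tle4cKO, against the shared WT library, had a median of -0.24.

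Upstream of these genes, receptors and signalling proteins were closer to WT. Of 29 past the filter, 20 were below WT with a median of -0.08, which became 0.02 under equal totals. The receptor chains Ifnar1 (54.2 FPKM in both) and Ifngr1 (131 and 139) lay near WT. Ifnb1, the interferon beta gene, was at 3.24 and 2.16 FPKM. Tlr7, an endosomal sensor of single-stranded RNA, had the lowest ratio of that list and is described with its chromosomal neighbours.

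The promoters of some interferon-stimulated genes are shown because they hold the core of the interferon-stimulated response element, a sequence through which interferon signals reach these genes. Sequences are stretches of the 250 bases before the RefSeq start site (GRCm38.p6), 5′ to 3′ on the strand of the gene, with every match to GAAA, any 2 bases and GAAA again, on either strand, in capitals. Matches may overlap. A match is a description, not a bound site. The genes run from the lowest ratio among those shown to one slightly above WT.
Ifit3: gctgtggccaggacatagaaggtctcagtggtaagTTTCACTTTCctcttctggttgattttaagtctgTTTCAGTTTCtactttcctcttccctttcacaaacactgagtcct
Oas1g: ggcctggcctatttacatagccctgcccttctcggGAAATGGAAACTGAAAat
Gbp7: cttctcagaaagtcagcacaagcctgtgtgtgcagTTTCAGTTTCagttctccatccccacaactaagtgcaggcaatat
Isg15: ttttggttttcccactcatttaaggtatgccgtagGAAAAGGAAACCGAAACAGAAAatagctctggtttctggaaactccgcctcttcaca
Igtp: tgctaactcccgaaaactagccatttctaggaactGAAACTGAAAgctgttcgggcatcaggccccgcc
Ifit1: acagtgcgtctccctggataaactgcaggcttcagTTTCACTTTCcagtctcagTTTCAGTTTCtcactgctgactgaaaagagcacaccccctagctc
Irgm2: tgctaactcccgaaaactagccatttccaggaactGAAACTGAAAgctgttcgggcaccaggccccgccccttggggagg

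These stretches lie at chr19:34583338-34583451 (plus strand), chr5:120887614-120887666 (minus), chr3:142530248-142530327 (plus), chr4:156200840-156200931 (minus), chr11:58199487-58199555 (plus), chr19:34640750-34640848 (plus) and chr11:58214878-58214957 (plus). In that order the log2 ratios of the genes were -0.71, -0.70, -0.59, -0.50, -0.35, -0.13 and 0.03. Ifit3 and Ifit1, which both hold 2 matches, therefore differed in ratio, as did Igtp and Irgm2 with 1 match each. Ifit1 was at 17.5 and 15.9 FPKM, and Igtp at 13.5 and 10.3. Oas1g, at 8.58 and 4.90 FPKM, is 1 of a cluster of near-identical copies, so its level is uncertain. Of the 64 members 47 had a promoter in the RefSeq set, and 26 of these held a match between 250 bases before and 50 after the start. Among the 8914 genes past the filter with a promoter, 4.06% held one, and of all 32851 RefSeq promoters 3.44% did. As fewer than 80% of the members could be matched, the share for the list is void as a comparison. Within the 47, the median log2 ratio was -0.33 with a match and -0.32 without.

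**Figure D3:**
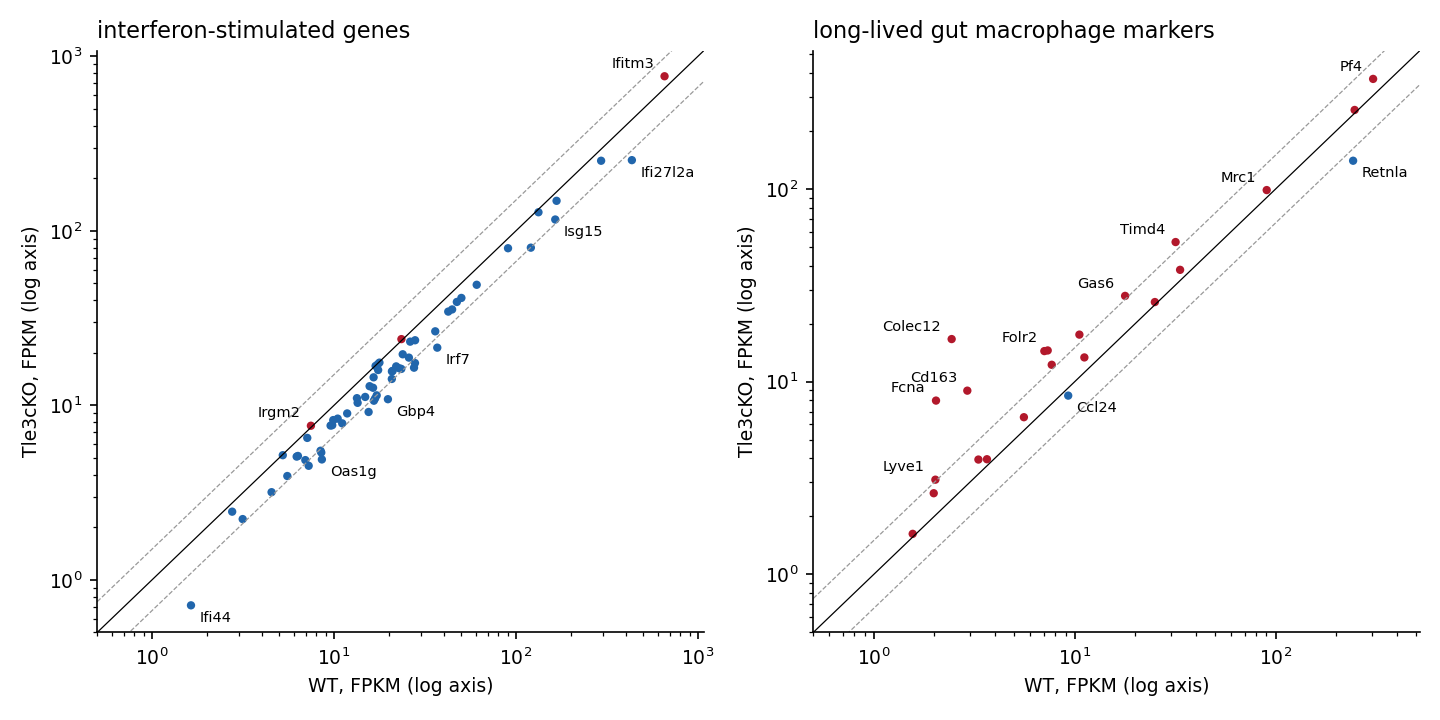
FPKM in WT (x axis) against FPKM in the library labelled Tle3cKO (y axis), both on log scales, for 64 interferon-stimulated genes (left) and 23 markers of long-lived gut macrophages (right); the solid line marks equal values, dashed lines a 1.5-fold ratio of FPKM without the added 1, red points are above WT and blue below. On the left 61 points lie under the solid line, and on the right 21 points lie above it with Colec12 (2.44 and 16.6 FPKM) farthest away.

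A run of neighbouring genes at the end of the X chromosome was lower in the library labelled Tle3cKO. The run was noticed after the values were seen. From Tmsb4x to the last gene past the filter there were 9 genes, of which 8 were below WT, all 8 past 1.5-fold and 4 past 2-fold, with a median log2 ratio of -0.98. Tmsb4x, thymosin beta 4, which binds actin monomers, was at 17707, 7563 and 8520 FPKM (ENSMUSG00000049775.16, X, 167207093 to 167209315). Tlr8, another endosomal sensor of single-stranded RNA, was at 36.8, 11.2 and 12.99 FPKM (ENSMUSG00000040522.5, 167242696 to 167264329). Tlr7 was at 61.8, 29.0 and 23.95 FPKM (ENSMUSG00000044583.13, 167304929 to 167330558). In all 3 genes both cKO libraries lay well below the WT library they share. Beyond them, Prps2, an enzyme of nucleotide synthesis, was at 5.39, 2.98 and 3.10 FPKM, and Msl3, a chromatin protein, at 15.6, 9.59 and 8.43. Arhgap6, a GTPase-activating protein, was at 10.3, 4.41 and 5.89 FPKM, and Hccs, which attaches haem to cytochrome c, at 42.0, 23.8 and 20.97. The ubiquitin ligase Mid1 was the exception at 41.1, 49.5 and 20.6 FPKM.

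The step lay between Rab9 and Tmsb4x. Rab9, an endosomal GTPase whose start lies at -0.750 Mb from that of Tmsb4x, was at 21.1 and 22.03 FPKM. The 10 X genes before Tmsb4x had log2 ratios from -0.35 to 0.49, with a median of 0.13. Over the 316 X genes before it the median was -0.01, 1 gene was past 1.5-fold lower and none was past 2-fold. In Tle4cKO all 9 genes of the run were below WT, with a median of -0.97. Both medians rest on the same WT library, so they are not separate measurements. Erdr1, which the files place at the end of the Y chromosome (90785442 to 90816465), was at 95.2, 367 and 39.5 FPKM. The Y genes Ddx3y (50.7 and 44.7) and Uty (5.28 and 4.73) were present in both libraries and Xist was listed at 0. No chromosome with at least 5 genes other than Y had a median farther from 0 than that of chromosome 19 at -0.04.

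**Figure D4:**
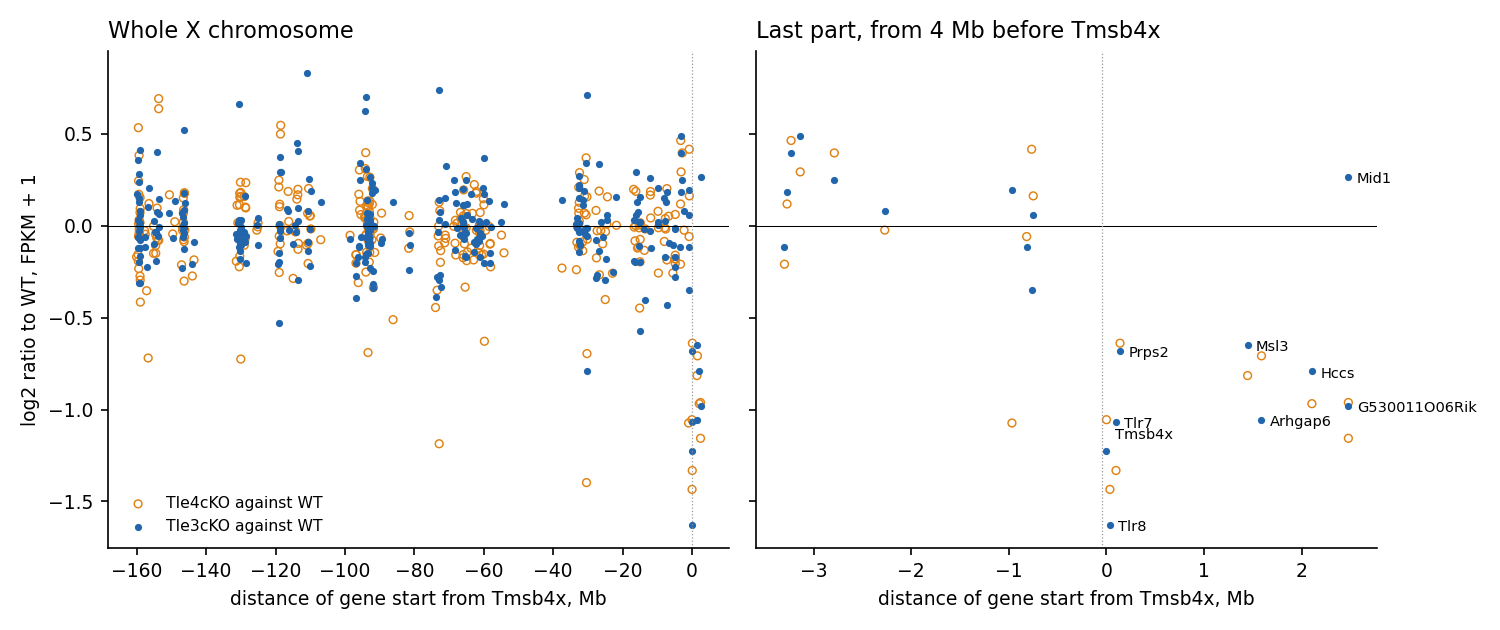
Log2 ratio to WT (y axis, FPKM + 1) of genes past the filter on the X chromosome against the distance of their start from that of Tmsb4x in Mb (x axis), for the library labelled Tle3cKO (blue) and the Tle4cKO library (open orange), which share the WT library; the left panel shows the whole chromosome and the right its last part. Blue points scatter about 0 up to the dotted line just before Tmsb4x, and beyond it 8 of 9 lie between -0.65 and -1.63, with Mid1 at 0.26.

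Elsewhere, runs of 5 adjacent genes with the lowest medians held families of immune genes. The Ifit genes of chromosome 19 lay in a run with a median of -0.55, and the Oas genes of chromosome 5 in one of -0.46. A run on chromosome 3 with a median of -0.50 held Sirpb1a, a signal-regulatory receptor at 10.6, 3.98 and 3.47 FPKM, and Sirpb1b at 6.44, 3.84 and 3.09. Among runs with the highest medians were the paired immunoglobulin-like receptors of chromosome 7 (0.50), with Pira2 at 9.21 and 13.4 FPKM. The Gimap genes of chromosome 6, GTPases of lymphocytes, had a run at 0.48, with Gimap1 at 1.64 and 4.25 FPKM. The highest, at 0.97 on chromosome 16, held the stefin gene Stfa2l1 at 0.441 and 3.21 FPKM. Several of these families contain near-identical copies, among which reads are divided by estimation, so the level of each copy is uncertain. The runs were found by scanning these values and are given as a description.

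Genes of antigen presentation were slightly lower and carried some of the largest losses in FPKM after Tmsb4x. Of 17 genes of MHC class II presentation past the filter, 13 were below WT, with a median of -0.18 and none past 1.5-fold. Cd74, the invariant chain and the most abundant gene of both libraries, was at 23181, 19940 and 21504 FPKM. H2-Eb1, a class II beta chain, was at 7159, 5926 and 6468 FPKM. Ciita, the master activator of class II genes, was at 14.4 and 12.7 FPKM, and H2-DMb2, part of the peptide exchange factor, at 63.0 and 79.7. For class I presentation, 15 of 20 genes were below WT with a median of -0.10, led by B2m, the light chain (3528 and 2745 FPKM), and H2-K1 (1275 and 1008). Under equal totals the class II median was -0.08 and the class I median was -0.00. Of all genes past the filter, 52.5% were below WT, and of those at 100 FPKM or more 73.8%. The shares of 76.5% for class II and 75% for class I were near the latter, and Cd74, H2-Eb1, B2m and H2-K1 are that abundant. The class I median lay less than 0.1 from that of all genes.

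Genes of the actin cytoskeleton had a median of -0.17, with 27 of 33 below WT, 20 under equal totals. Of all genes past the filter 52.5% were below WT, and of those at 100 FPKM or more 73.8%. The members of the actin list named here are that abundant. Apart from Tmsb4x, Actb, cytoplasmic beta actin, was lowest at 1788, 939 and 1550 FPKM. Gamma actin, Actg1, differed less, at 2248 and 1877 FPKM. Coro1a, an actin-binding protein of leukocytes, was at 281 and 222 FPKM, and Vim, an intermediate filament gene kept in the same list, was the highest as given above. Cholesterol synthesis genes were below WT in 23 of 25 cases, with a median of -0.16 and none past 1.5-fold, and in 17 under equal totals. Examples were Stard4, a sterol carrier (4.27 and 2.74 FPKM), and Mvk, mevalonate kinase (2.63 and 1.81).

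Genes of the circadian clock were above WT in 12 of 15 cases, with a median of 0.22. Dbp, a clock output factor, was at 1.17, 2.44 and 0.932 FPKM, and Nr1d1, the repressor REV-ERB alpha, at 14.5, 19.3 and 10.3. Arntl and Clock, the activators of the loop, went the other way at 7.58 and 6.73 FPKM and at 6.76 and 5.71 FPKM. The labels say the mice were sorted at the same time and give no hour. Growth factor genes were above WT in 14 of 21 cases, with a median of 0.16, and ranged from Nrg1, a ligand of ERBB receptors (5.94 and 3.85 FPKM), to Gdf15. Of 58 lists with at least 5 genes past the filter, 9 had a median at least 0.1 above that of all genes, 8 at least 0.1 below it, and 41 lay closer.

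**Figure D5:**
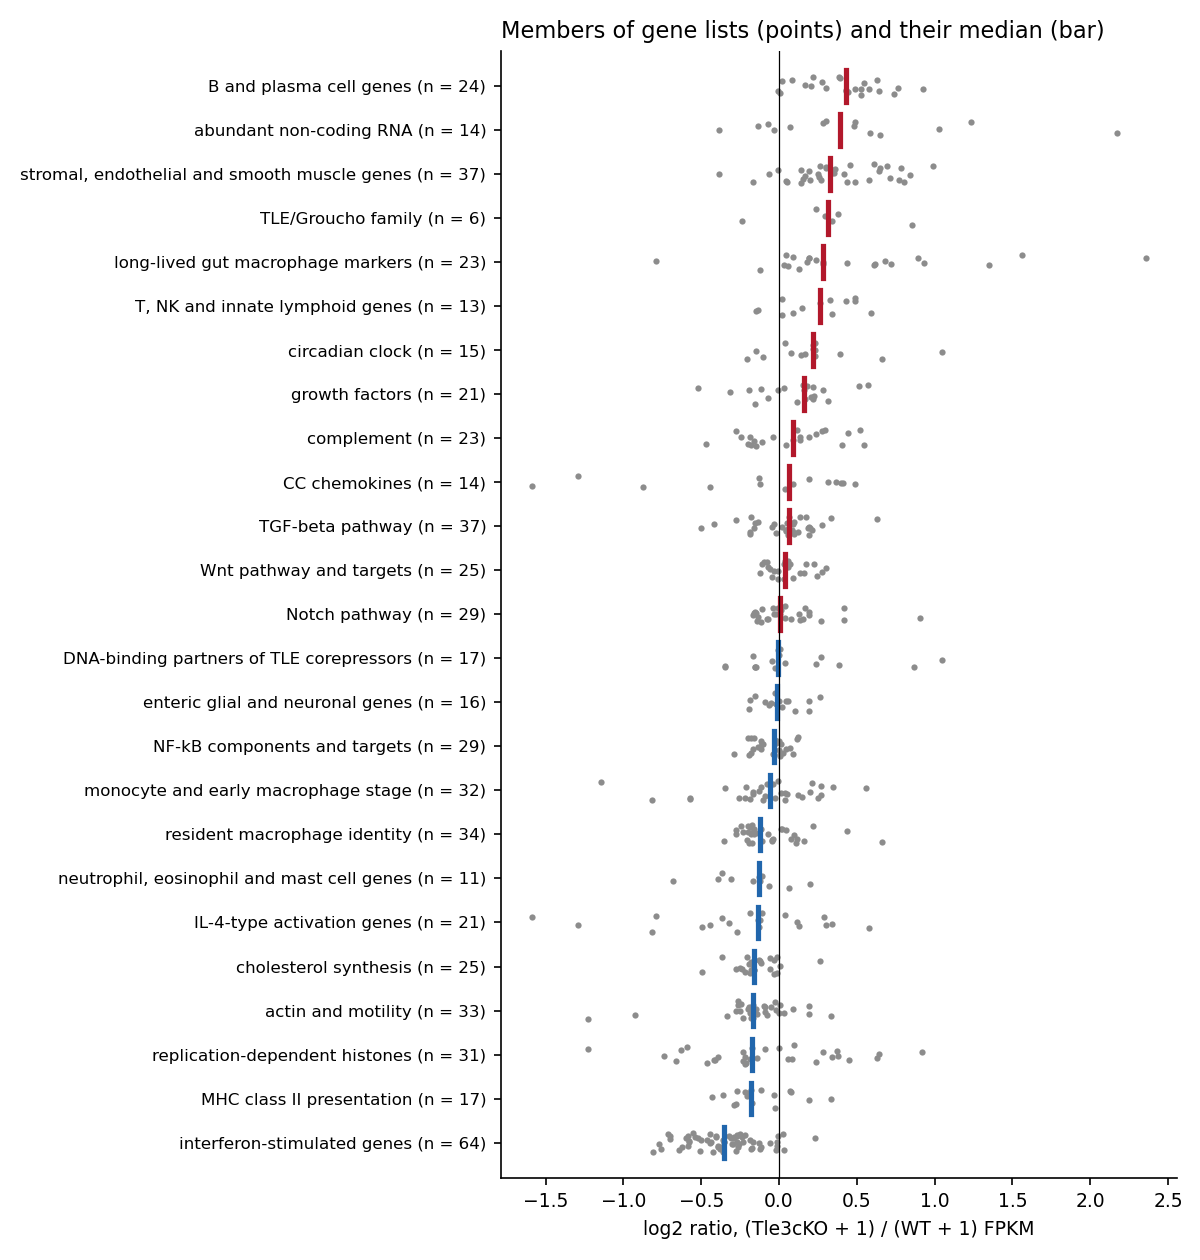
Log2 ratio to WT for the library labelled Tle3cKO (x axis, FPKM + 1) of each member past the filter (grey points) and the median (bar, red above 0 and blue below) for the lists whose median lay at least 0.1 from that of all genes and for 8 others named in the text or close to TLE function. Interferon-stimulated genes at -0.35 and B and plasma cell genes at 0.43 are the ends, and the Wnt and Notch lists lie near 0.

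Genes tied to the known partners of Groucho proteins lay close to WT as groups. Of 17 DNA-binding partners past the filter, 7 were above WT and 10 below, with a median of -0.01 that became 0.09 under equal totals, and 1 was past 2-fold higher. That 1 was Bhlhe41, which overlaps the clock list. Tcf7, a TCF/LEF factor most abundant in T cells, was at 1.86, 4.22 and 3.55 FPKM, while Tcf7l2 was at 5.41, 4.03 and 4.49. Hes1 was at 49.3 and 49.1 FPKM, Runx1 at 38.6 and 37.4, and Runx3 at 122 and 109. Among 25 genes of the Wnt pathway and its targets, 15 were above WT with a median of 0.04 and none past 1.5-fold. Axin2, a target used to read Wnt activity, was below the filter at 0.463 and 0.772 FPKM. Of 29 Notch pathway genes, 15 were above WT, with a median of 0.01. Dll4, a Notch ligand, was the single one past 1.5-fold, at 0.792, 2.36 and 2.05 FPKM. In the TGF-beta pathway 25 of 37 were above WT with a median of 0.07. Tgfb1, the ligand that macrophages need to mature in the gut, was at 331 and 248 FPKM, and its co-receptor Tgfbr3 at 2.96 and 5.12.

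Markers of B cells, T cells and stroma were mostly higher in the library labelled Tle3cKO, while those of granulocytes lay on both sides. Of 24 B and plasma cell genes past the filter, 23 were above WT, with a median of 0.43, and their summed level over all with a row was 401 and 496 FPKM. Among defining B cell genes, Ms4a1 was at 4.41 and 6.80 FPKM and Cd79a at 19.5 and 33.9, and the plasma cell genes Igj and Mzb1 summed to 53.4 and 64.5. Of 37 stromal, endothelial and smooth muscle genes, 33 were above WT, with a median of 0.33 and sums of 648 and 793 FPKM. Smooth muscle markers Acta2 and Myh11 summed to 12.4 and 18.6 FPKM and fibroblast markers Col1a1, Col3a1 and Dcn to 162 and 191. Of the endothelial markers, Cdh5 (1.31 and 2.99 FPKM) and Kdr (1.30 and 2.23) were above WT and Pecam1, which macrophages also express, was below it (24.9 and 18.8). T cell markers Cd3d, Cd3e and Cd3g were near the lower end at 1.78 and 3.46 FPKM, and epithelial markers at 1.58 and 2.84. Of 13 T, NK and innate lymphoid genes, 11 were above WT with a median of 0.26. Of 34 neutrophil, eosinophil and mast cell genes listed, 11 passed the filter and 9 of these were below WT, with a median of -0.13. That median became -0.07 under equal totals. Their summed level over all with a row was 235 and 232 FPKM. The neutrophil marker S100a8 (81.4 and 93.5 FPKM) and the mast cell marker Kit (18.6 and 19.5) were above WT. Csf3r, another neutrophil marker, was below it (19.7 and 18.2). Of 26 dendritic cell genes, 15 were below WT, with a median of -0.06 that became 0.03 under equal totals. Glial genes were level, with 8 of 16 above WT and a median of -0.01, which became 0.07 under equal totals. Among the defining markers of these types, only the eosinophil genes given above were listed at 0. The B cell, T cell and stromal markers lay on the same side as the long-lived macrophage genes, several of which (Lyve1, Selp and Colec12 among them) other cell types also express. The part of such cells in any difference was not tested.

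Transcripts of ribosomal RNA and other abundant non-coding RNA were higher as well. Of 14 past the filter, 10 were above WT with a median of 0.39. Rn45s, the ribosomal RNA precursor, was at 389, 795 and 331 FPKM, and Malat1, a nuclear RNA, at 325, 509 and 276. Rmrp, the RNA of an endonuclease, was at 17.9, 84.3 and 19.4 FPKM. Lars2, a mitochondrial leucine tRNA ligase gene whose row can take up ribosomal RNA reads, was at 165, 391 and 113 FPKM. In these 4 rows the Tle4cKO library lay near or below WT. Other members were above WT in both, such as Rpph1 (17.9, 27.4 and 31.8 FPKM) and Snhg12 (35.8, 50.6 and 45.5). Of the 14 genes, 6 were above WT in Tle4cKO and 8 below. Rn4.5s, a row outside this list, was at 201, 442 and 330 FPKM. Genes for cytosolic ribosomal proteins were below WT in 68 of 76 cases with a median of -0.06, and subunits of oxidative phosphorylation in 67 of 79 with a median of -0.11. Of all genes past the filter 52.5% were below WT, and of those at 100 FPKM or more 73.8%. Both list medians lay less than 0.1 from that of all genes. Under equal totals these medians were 0.04 and -0.01, with 19 and 44 genes below WT. Whether RNA quality or the removal of ribosomal RNA has a part in the differences above was not tested.

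Some of the largest ratios rest on rows whose counting is uncertain. Snora81, a small nucleolar RNA, was at 730 FPKM in WT and listed at 0 in both other libraries. The joined row Eif3j1,Eif3j2 was at 28.2, 0.038 and 10.4 FPKM, while the separate row of Eif3j2, near-identical in sequence, was at 30.4, 60.3 and 48.3. Cd300lh, a receptor gene of the CD300 cluster on chromosome 11 (115042131 to 115048295), was at 16.03 FPKM in WT, listed at 0 in the library labelled Tle3cKO and at 0.00830 in Tle4cKO. Its neighbour Cd300e was at 1.82, 0.326 and 0.663 FPKM, whereas Cd300a in the same cluster was at 115 and 122. Rab26os, an antisense transcript, was at 9.72, 2.03 and 18.5 FPKM, and reads of the 2 strands cannot be told apart here. Of the 25 genes past 2-fold higher, the 2 listed at 0 in WT were Gm7367 (2.96 FPKM) and Scarna13 (2.498). No fold is given for rows listed at 0. The relaxin-related gene Insl6 (16.4, 6.47 and 16.2 FPKM) and Erp27, a chaperone of the endoplasmic reticulum (3.36, 0.824 and 0.730), were further genes past 2-fold lower, as were Cox7a1 (4.1997, 1.45 and 0.365) and the histone gene Hist1h4h (3.94, 1.11 and 3.15).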

How the data were processed

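RNA-seq libraries of sorted colon macrophages were compared, 1 pooled library per genotype, grouped by sample title. The authors deposited FPKM per gene, per the file headers, in 1 table per library with 23997 rows each. Per the submitters' processing notes, TopHat2 2.1.0, Cufflinks 2.2.1 and the build mm10 were used. Read depth and strandedness: not given in the sources used here, so there are no counting intervals. Cufflinks divides reads of near-identical copies by estimation. Identifiers and positions came from GENCODE M21 (mm10), which held 93.3% of the symbols.

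Tables were joined on gene symbol, and the log2 ratio of FPKM + 1 was computed for genes averaging 1 FPKM or more. Single libraries allow no test. The steps were tested on simulated data. The members and 59 gene lists were chosen with earlier results of these data known. Named genes were the TLE family, the 20 highest and 20 lowest ratios from an average of 2 FPKM upwards, leaving aside provisional, joined, small RNA and antigen receptor rows, the 15 largest FPKM differences each way, the 10 most abundant genes of each library, up to 6 members per list, a fixed set, the 10 nearest neighbours of Tle3 and the genes next to the filter. Others, including distal X genes, were named after their values were seen. Lists with at least 5 genes past the filter were called shifted at 0.1 from the median of all genes. As 9 other settings, the pseudocount was 0.1 or 5, the filter was dropped, raised to 5 FPKM or set at 1 FPKM in WT, libraries were scaled to equal totals, upper quartiles or medians, and totals were equalised after removal of histone, ribosomal protein, small RNA and antigen receptor rows. Promoters came from RefSeq (GRCm38.p6). Python 3.11.15, numpy 2.4.6, pandas 2.3.3 and matplotlib 3.10.9 were used.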

Additional observations from a re-analysis of the deposited data

How the results depend on the processing

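With 1 pooled library per genotype and unknown depth, no difference has a measured error, and low values carry the least information. No paired analysis was possible because each genotype had 1 library. Counts of genes past 2-fold moved most. Of 25 higher and 26 lower genes, there were 87 and 64 with a pseudocount of 0.1 FPKM, 7 and 10 with a pseudocount of 5, and 12 and 14 at a mean of at least 5 FPKM. The higher count was 13 with 1 FPKM required in WT, 44 under equal totals and 41 under equal totals after removal of histone, ribosomal protein, small RNA and antigen receptor rows. Lists with a lower median were 4 with a pseudocount of 5, against 8. Relative to all genes, the replication-dependent histone median changed from -0.16 to 0.00 (0.00127) without a filter, and the complement median from 0.10 to -0.0505 at a mean of at least 5 FPKM, with fewer genes tested. Of 33 named genes past 2-fold, 16 were past it in every setting that kept them and 0 changed sign. The Tle3 ratio ran from 0.80 to 0.96.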
